A study of Mus musculus with 30 samples.

Results

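Liver and brown adipose tissue (BAT) of mice on a high-fat diet (HFD) were compared through the messenger RNA of 10 of the 30 libraries of the study. The 10 were taken by label: 5 liver and 5 BAT libraries of C57BL/6N mice whose treatment label is HFD alone, numbered 75, 76, 79, 80 and 83 in both tissues. The other libraries, from HFD mice given the glucose-lowering drug imeglimin or from subcutaneous white fat, did not enter any value below. The labels give no age or sex, and no other allele or agent. The design text counts 4 mice per treatment while the labels list 5 libraries in each group, and grouping here rests on the labels. Separate animals are not stated for replicate libraries, and p-values therefore reflect only the spread among the samples, part of which could be technical.

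Liver and BAT are both fuel-handling tissues with opposite outputs. The hepatocyte secretes most plasma proteins and lipoproteins, releases glucose and ketone bodies, makes urea and bile acids and clears foreign compounds. The brown adipocyte takes up fatty acids and glucose, stores triglyceride in many small droplets, releases fatty acids from them on adrenergic stimulation and burns them in dense mitochondria, where uncoupling protein 1 lets protons return without making ATP. In whole tissue, more cells of a type and more RNA per cell cannot be told apart, and all levels below are of the tissue.

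The authors deposited TPM, in which length-corrected transcript estimates are expressed as shares of a fixed total, so that sequencing depth is unknown. Transcripts of the mitochondrial genome, with 16 near-identical nuclear copies, held 21.03 ± 0.459% of the deposited TPM in liver (SD, n = 5) and 65.4 ± 1.84% in BAT (SD, n = 5). The ranges, 20.4 to 21.6% and 62.99 to 67.9%, did not overlap (exact two-sided permutation test, p = 0.00794, the smallest that 5 against 5 allows). The copies alone held 7.81 to 8.59% in liver and 25.5 to 27.6% in BAT. These genes were therefore dropped and the remaining TPM rescaled to the same total before any gene was compared. All levels below are rescaled TPM, as mean ± SD over the 5 libraries of a tissue, and all differences are log2(TPM + 1) in liver minus BAT, so a positive difference is higher in liver.

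The rescaled totals were divided differently in the tissues. The 10 most abundant genes took 23.6 to 25.4% of a liver library and 8.68 to 9.78% of a BAT library. Over the 13520 genes tested, the median difference was -0.83. It was 0.01 over 13413 genes when libraries were scaled by the median ratio of genes nonzero in every library and averaging at least 1 TPM. A gene at the level of the typical gene thus reads as lower in liver on the first scale. Counts of list members on the median-ratio scale are given beside the others where they differ, and a direction is called only from a test of whether a gene differed by more than 2-fold (limma's treat, Benjamini-Hochberg adjusted p below 0.05).

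Libraries correlated at 0.981 to 0.995 within a tissue and at 0.816 to 0.862 between tissues. These values are over log2(TPM + 1) of the deposited TPM, before rescaling. They cover all genes not dropped, including those too low to be tested. The tissue labels matched the defining markers, since all 15 hepatocyte markers were higher in liver and 12 of 13 brown adipocyte markers were higher in BAT. The exception was Elovl3, a fatty acid elongase, at 472 ± 146 TPM in liver and 78.5 ± 26.9 TPM in BAT.

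Transcripts of other tissues differed in level between the BAT libraries. Albumin, Alb, was at 212, 506, 1185, 14.1 and 1187 TPM in BAT libraries 75, 76, 79, 80 and 83, against 57613 to 80464 TPM in liver. The 15 hepatocyte markers moved with it: their median level was 0.351% of the liver mean in BAT library 75, 0.8095% in 76, 2.07% in 79, 0.0197% in 80 and 2.05% in 83. Library 80 was thus nearly free of hepatocyte transcripts. It held the lowest of the 5 BAT values for 46.4% of the genes called higher in liver, against 27.1% of all genes tested. Skeletal muscle actin, Acta1, was at 569.8, 542, 4874, 353 and 56.6 TPM in the same order, and the 17 muscle markers summed to 17940 TPM in library 79 and to 412 to 2509.6 TPM in the others. The part that hepatocyte and muscle transcripts play in the differences was not tested, and the values of library 80 or 79 are given where they bear on one.

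**Figure D1:**
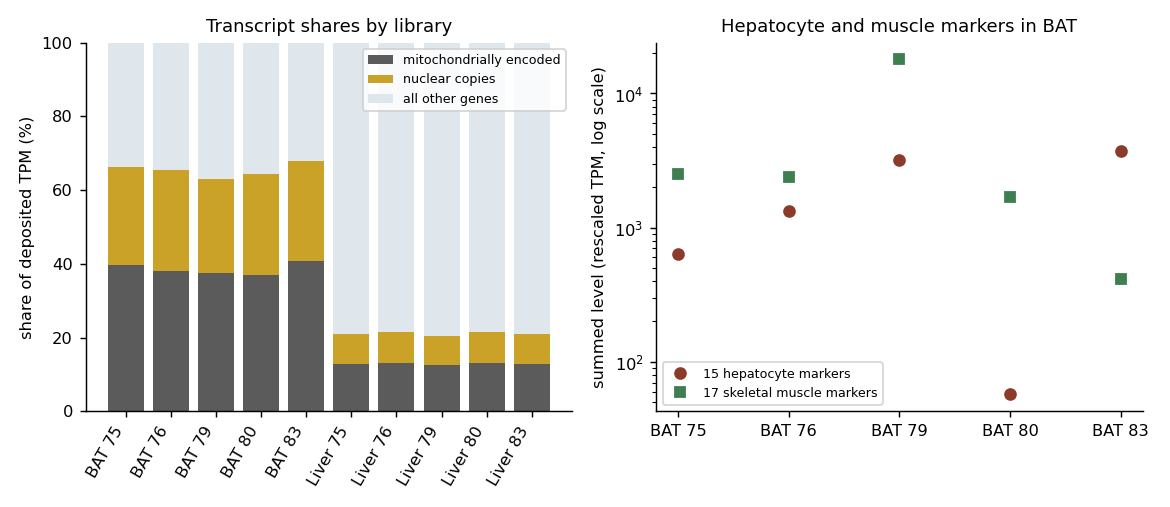
Left, share of the deposited TPM (%) held by mitochondrially encoded genes, by their nuclear copies and by all other genes in each of the 10 libraries. Right, summed rescaled TPM (log scale) of 15 hepatocyte and 17 skeletal muscle markers in the 5 BAT libraries. The mitochondrial share, copies included, is 62.99% or more in every BAT library and 21.6% or less in every liver library, and the hepatocyte sum is lowest in BAT library 80.

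Of the genes tested, 1435 (10.6%) were more than 2-fold higher in liver and 4286 (31.7%) in BAT. With the nuclear copies kept, the calls were 1808 and 2187. With median-ratio scaling the calls were 2164 (16.1%) and 1968 (14.7%), of the 13413 genes tested on that scale. The counts of list members below are to be read beside these shares of all genes tested. All 1435 genes called higher in liver with the copies dropped were called so with median-ratio scaling, 1968 genes were called higher in BAT on both, and 0 were called in opposite directions. Without a fold threshold, 2390 (17.7%) and 9543 (70.6%) differed. The genes called higher in liver summed to 65.95% of liver TPM and to 3.65% of BAT TPM, and those called higher in BAT to 10.04% and 64.9%.

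The largest differences toward BAT included genes of uncoupling and fat handling. Ucp1, uncoupling protein 1, was at 15462, 13985, 11085, 16738 and 13186 TPM in BAT libraries 75, 76, 79, 80 and 83. In liver it was listed at 0 in 4 of the 5 libraries and reached 0.888 TPM in the other. Its difference was -13.59 (SE 0.14, limma treat, adjusted p = 6.75e-09). It was followed by Cox8b, a tissue-restricted subunit of cytochrome c oxidase, at -12.80, and Fabp3, a fatty acid binding protein of oxidative tissues, at -12.30. Adipoq, the adipokine adiponectin, differed by -10.62 and Plin1, the droplet coat protein that gates lipolysis, by -10.31. Rgcc, Prkar2b (a regulatory subunit of protein kinase A), Fabp4 and S100b were also among the 10, at -10.13 to -9.58. Of these, Rgcc is among the capillary endothelial markers used below, and S100b was listed as a marker of Schwann cells and nerve.

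Toward liver the largest differences were secreted proteins and amino acid enzymes. They were led by the protease inhibitors Mug1 (8.24) and Pzp (8.10) and by Cps1, the entry enzyme of the urea cycle (8.03). Alb, Mat1a (the liver methionine adenosyltransferase), Mug2, Apob, Serpina1d, Serpina3k and Fga followed, at 7.90 to 7.68. For Cps1 the ratio of liver to BAT at the same number was 442, 261, 124 and 92.3 with 4 of the BAT libraries, and 21300 with library 80. The direction was the same at every number, whereas the size differed widely between BAT libraries with and without other hepatocyte transcripts. Members of the Mug, Serpina1 and Serpina3 families are near-identical copies whose reads the quantification may divide, so single members are uncertain.

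**Figure D2:**
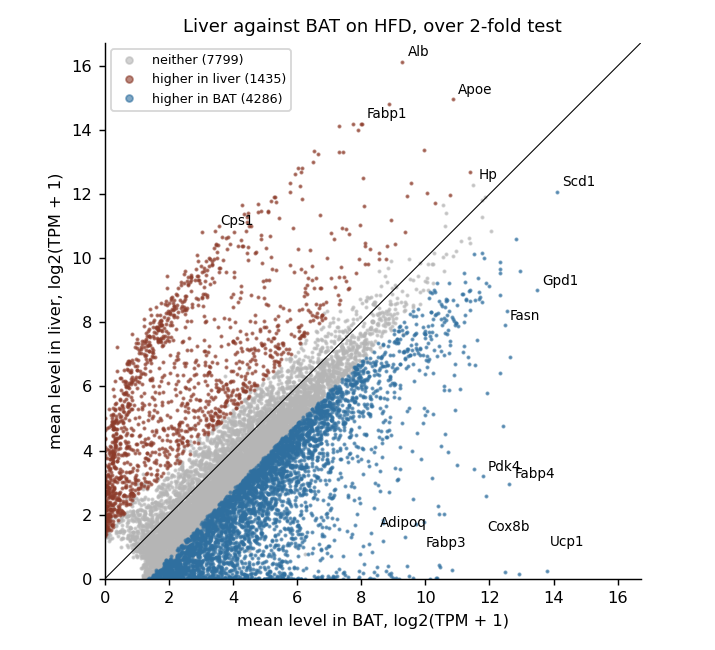
Mean level of each of the 13520 genes tested in BAT (horizontal) and liver (vertical), log2(TPM + 1) over 5 libraries each; the line marks equal levels. Coloured points passed the 2-fold test, 1435 toward liver and 4286 toward BAT, and Ucp1, Cox8b and Fabp3 lie on the floor of the liver axis.

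Secreted plasma proteins had the most positive median of the lists, those of cell markers aside. Of 39 tested, 37 were higher in liver and 0 in BAT (38 and 0 with median-ratio scaling), with a median difference of 6.84 against -0.83 for all genes. Alb averaged 71501 ± 9798 TPM in liver and 621 ± 545 TPM in BAT. Gc, the vitamin D carrier, averaged 8158 ± 230.5 and 88.3 ± 79.5 TPM, and Ttr, the thyroxine and retinol carrier transthyretin, 10231 ± 414 and 157 ± 148 TPM. The fibrinogen chains Fga, Fgb and Fgg differed by 7.68, 7.39 and 7.39.

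Some plasma protein transcripts were also abundant in the BAT libraries. Hp, the haemoglobin scavenger haptoglobin, was at 2663, 2884, 2882, 2977 and 2988 TPM in the 5 BAT libraries and 4056, 3924, 5526, 4936 and 6774 TPM in the liver libraries, and passed the 2-fold test only with median-ratio scaling. Its level in BAT library 80, nearly free of Alb, was within the range of the others. Complement C3 was at 279, 246, 238, 285 and 311 TPM in BAT and 3162 ± 252 TPM in liver, a difference of 3.54. Rbp4, the retinol carrier, was at 211, 242, 254, 217 and 388 TPM in BAT. Of the 40 plasma protein genes in the table, 10 reached 10 TPM in library 80: Hp, Kng2, C3, Rbp4, Trf, C4b, Cfb, Alb, Vtn and Cp.

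Of 19 genes of apolipoproteins and lipoprotein assembly, 17 were higher in liver, or 18 with median-ratio scaling (median 6.21). Apob, the structural protein of very low density lipoprotein, was at 1074, 1206, 983, 1043 and 1142 TPM in liver and 2.03, 5.38, 12.3, 0.0876 and 12.3 TPM in BAT. Mttp, which loads lipid onto it, was at 166 ± 9.44 and 4.28 ± 0.919 TPM. Apoe, a ligand for lipoprotein uptake made by many cells, was at 2043, 1930.4, 1963, 1060.3 and 2229 TPM in BAT, library 80 included, beside 31722 ± 1396 TPM in liver. Apoc1 was likewise at 855 to 1281 TPM in every BAT library.

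Most genes of nitrogen handling were higher in liver. Of 31 amino acid catabolism genes, 30 were higher in liver, with a median of 6.27. Tat, which starts tyrosine breakdown, was at 1815 ± 727 TPM in liver and 15.4 ± 14.4 TPM in BAT. Sdsl, a serine dehydratase-like gene, was the exception at -1.97, a call lost with median-ratio scaling. Of 12 genes of the urea cycle and ammonia handling, 10 were higher in liver. The cycle enzymes Cps1, Otc, Ass1, Asl and Arg1 differed by 8.03, 6.50, 7.08, 4.33 and 7.12. Gls2, the liver glutaminase, was higher in liver (6.74), whereas Glul, glutamine synthetase, was at 1289, 1212, 1133, 1015 and 1056 TPM in the liver libraries and 1179, 947, 1509, 1183 and 1322 TPM in the BAT libraries and passed on neither scale.

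Branched-chain amino acid breakdown was the amino acid route with the opposite balance. Of 23 genes, 15 were higher in BAT (8 with median-ratio scaling) and 2 in liver, with a median of -1.60. Bcat2, the mitochondrial transaminase of the first step, was at 12.7, 12.7, 15.5, 12.3 and 13.5 TPM in liver and 124, 109, 105, 101 and 111 TPM in BAT, a difference of -2.95. The regulators of the next enzyme complex went in opposite directions: its kinase Bckdk was at 7.603 ± 0.502 and 155 ± 13.5 TPM (-4.18), and its phosphatase Ppm1k at 45.4 ± 9.57 and 12.9 ± 2.23 TPM (1.73).

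All 21 genes of bile acid synthesis and transport were higher in liver on both scales (median 6.40). Cyp7a1, the rate-limiting enzyme, was at 54.6, 32.8, 53.5, 44.2 and 29.9 TPM in liver and at most 0.707 TPM in BAT. Cyp8b1, which sets the cholic acid share, was at 685 ± 130.4 TPM, the export pump Abcb11 at 403 ± 79.5 TPM and the uptake carrier Slc10a1 at 683 ± 41.9 TPM in liver. The smallest differences were those of Amacr (1.42) and Cyp27a1 (2.11), both also used outside bile acid synthesis, and Cyp27a1 was at 148, 167, 154, 146 and 172 TPM in BAT.

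Of 38 genes of foreign-compound metabolism, 30 were higher in liver and 3 in BAT, or 32 and 3 with median-ratio scaling. Cyp2e1, which oxidises ethanol and small solvents, was at 9847 ± 1741 TPM in liver and 98.97 ± 76.3 TPM in BAT. The 3 members higher in BAT were Cyp2b10, Ces1d and Fmo2. Cyp2b10 was at 0.229, 4.93, 1.71, 0.487 and 4.74 TPM in liver and 40.7, 32.8, 65.4, 29.9 and 118 TPM in BAT (-4.19), while its relative Cyp2b9 went the other way (5.35). Ces1d, a carboxylesterase that also hydrolyses triglyceride, was at 474 ± 105 and 2304 ± 248 TPM.

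Of 9 genes of gluconeogenesis and glucose release, 5 were higher in liver and 2 in BAT. G6pc, the phosphatase that frees glucose, was at 602, 534, 279, 451 and 85.7 TPM in liver and 1.797, 3.34, 3.14, 0 and 3.43 TPM in BAT (6.78), and Fbp1 was at 1632 ± 109.6 and 11.7 ± 8.54 TPM (7.43). Pck1, which makes phosphoenolpyruvate for glucose in liver and for glycerol in fat, was at 1747, 2592, 1458, 1696 and 1680.2 TPM in liver and 5580.0, 4242, 4152, 2800.5 and 4413 TPM in BAT and passed on neither scale. Fbp2, the muscle-type bisphosphatase, was higher in BAT (-5.56), at 56.9, 67.5, 58.8, 57.9 and 51.3 TPM in the 5 libraries, and unlike the muscle markers it was not highest in library 79.

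Of 27 genes of glucose uptake and glycolysis, 17 were higher in BAT (15 with median-ratio scaling) and 4 in liver (5). Slc2a4, the insulin-regulated transporter, was at 406, 464, 405, 605 and 399 TPM in BAT and 0.488, 0.499, 0.2598, 0.118 and 0.226 TPM in liver. Hk2, the low-Km hexokinase, was at 1.13 ± 0.577 and 299 ± 64.6 TPM, and Pkm, pyruvate kinase M, at 10.7 ± 1.697 and 2048 ± 204 TPM. The members higher in liver included Pklr, the liver pyruvate kinase (6.81), and the low Aldoc (2.47). Ldhb, the lactate dehydrogenase subunit of oxidative tissues, differed by -8.57, whereas Ldha was at 781 ± 61.9 and 1528 ± 106 TPM and passed on neither scale. Pgam2 and Eno3, expressed chiefly in muscle, were also called higher in BAT. Pgam2 was at 48.9, 48.5, 337, 29.6 and 7.39 TPM in BAT, highest in library 79, where the muscle markers were highest.

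Of 6 genes of fructose metabolism, 4 were higher in liver and 2 in BAT. Khk, ketohexokinase, was at 632 ± 66.02 TPM in liver and 33.7 ± 7.27 TPM in BAT (4.21), and Sord and Tkfc were higher in liver as well. Akr1b3, aldose reductase, which starts the route from glucose to fructose, was higher in BAT (-4.26), as was the fructose transporter Slc2a5 (-2.33), whose call was lost with median-ratio scaling. Of 17 glycogen genes, 11 were higher in BAT and 0 in liver, or 5 and 2 with median-ratio scaling. Of all genes tested, 31.7% and 10.6% were, or 14.7% and 16.1% with median-ratio scaling. Gys1, the glycogen synthase of muscle and fat, was at 1.11, 2.07, 1.58, 1.42 and 2.09 TPM in liver and 247, 218, 198, 198 and 187 TPM in BAT. Gys2, the isoform known from liver, was at 131, 142, 198, 124 and 141 TPM in liver and 101, 103, 106, 133 and 94.4 TPM in BAT, and was called higher in liver only with median-ratio scaling. BAT thus held transcripts of both isoforms.

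Genes of fatty acid synthesis went in both directions. Of 21 genes, 12 were higher in BAT (9 with median-ratio scaling) and 5 in liver (6). Fasn, fatty acid synthase, was at 147, 277, 110.2, 457 and 207 TPM in liver and 3857, 6888, 5193, 7186 and 5234 TPM in BAT (-4.70, SE 0.20, limma treat, adjusted p = 2.76e-06). Acaca and Acacb, the carboxylases before it, differed by -4.22 and -3.96, Acly, which supplies acetyl-CoA, by -3.05, and G6pdx, which supplies NADPH, by -6.21. The enzymes that make long polyunsaturated fatty acids were higher in liver, namely Elovl2 (7.07), Fads2 (5.59), Fads1 (4.89) and Elovl5 (3.22). Scd1, the stearoyl-CoA desaturase, was the most abundant gene of BAT at 17669.6 ± 3966 TPM, with 2167, 6779.7, 1662, 6269 and 4728 TPM in the liver libraries. Its call toward BAT (-2.21) was lost with median-ratio scaling (-1.27). The regulators Srebf1 (136 ± 37.9 and 146 ± 39.5 TPM) and Mlxipl (188 ± 6.39 and 269 ± 54.9 TPM) passed on neither scale.

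Genes of lipid droplets and lipolysis were mostly higher in BAT, and those of triglyceride synthesis were divided. Gpd1, which makes glycerol 3-phosphate, was at 549.7, 539, 428, 563 and 468 TPM in liver and 10589, 12061, 9962, 13801 and 11186 TPM in BAT (-4.50). Of 14 synthesis genes, 7 were higher in BAT (5 with median-ratio scaling) and 1, the phosphatidate phosphatase Lpin2 (3.33), in liver. Of 20 droplet and lipolysis genes, 17 were higher in BAT (14 with median-ratio scaling) and 3 in liver. The lipases Pnpla2, Lipe and Mgll, which remove the fatty acids of triglyceride in turn, differed by -6.16, -7.08 and -2.74. Lipe was at 7.04, 5.31, 9.88, 7.17 and 9.696 TPM in liver and 1305, 1244, 1093, 1142 and 1079 TPM in BAT. The members higher in liver were Aqp9, a glycerol channel (6.66), Cideb, which serves lipoprotein lipidation (4.34), and Fitm1 (4.17).

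Fatty acid uptake and activation showed no common direction, with 7 of 23 genes higher in liver and 9 in BAT. These were 30.4% and 39.1% of the list, against 10.6% and 31.7% of all genes tested. With median-ratio scaling 9 and 8 were called, and the median was 0.87, against -0.03 on the first scale. Lpl, which frees fatty acids from circulating triglyceride, was at 5.32, 4.76, 1.97, 2.89 and 4.12 TPM in liver and 1606, 1257, 1414, 1161 and 1348 TPM in BAT, and its anchor Gpihbp1 differed by -3.30. The carrier Cd36 was at 119 ± 16.8 and 2554 ± 116 TPM. Slc27a5, which also activates bile acids, was at 959 ± 39.6 and 6.46 ± 4.88 TPM.

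Most genes of mitochondrial beta-oxidation were higher in BAT on both scales. Of 21 genes, 17 were higher in BAT on either scale (median -2.52). Acadl, a long-chain acyl-CoA dehydrogenase, was at 311, 340.0, 347, 321 and 330.0 TPM in liver and 6283, 6157, 5605, 5928 and 6084 TPM in BAT. The entry step was divided by isoform: Cpt1b was at 4.005, 4.07, 1.67, 2.36 and 3.06 TPM in liver and 1531, 1368, 1304, 1380.3 and 1340.1 TPM in BAT, and Cpt1a, the only member higher in liver, at 189.9, 216, 236, 189.6 and 216 and 19.2, 19.1, 18.3, 14.8 and 15.97 TPM. Peroxisomal fatty acid metabolism had another balance, with 10 of 21 genes higher in liver and 3 in BAT, or 14 and 2 with median-ratio scaling. Crat, carnitine acetyltransferase, was among the 3 called toward BAT, at 39.1 ± 5.91 TPM in liver and 719 ± 41.03 TPM in BAT (-4.18).

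Of 10 genes of ketone body production and use, 4 were higher in liver and 4 in BAT, or 6 and 2 with median-ratio scaling. Bdh1, which makes 3-hydroxybutyrate, was at 232, 240.0, 247, 233 and 243 TPM in liver and 1.26, 1.14, 6.07, 0.105 and 3.62 TPM in BAT (6.42). Oxct1, without which ketone bodies cannot be burned, was at 2.88, 1.54, 2.29, 2.45 and 3.497 TPM in liver and 460.0, 388, 388, 387 and 407 TPM in BAT (-6.87), and the monocarboxylate carrier Slc16a1 at 34.7 ± 6.28 and 402 ± 68.4 TPM.

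**Figure D3:**
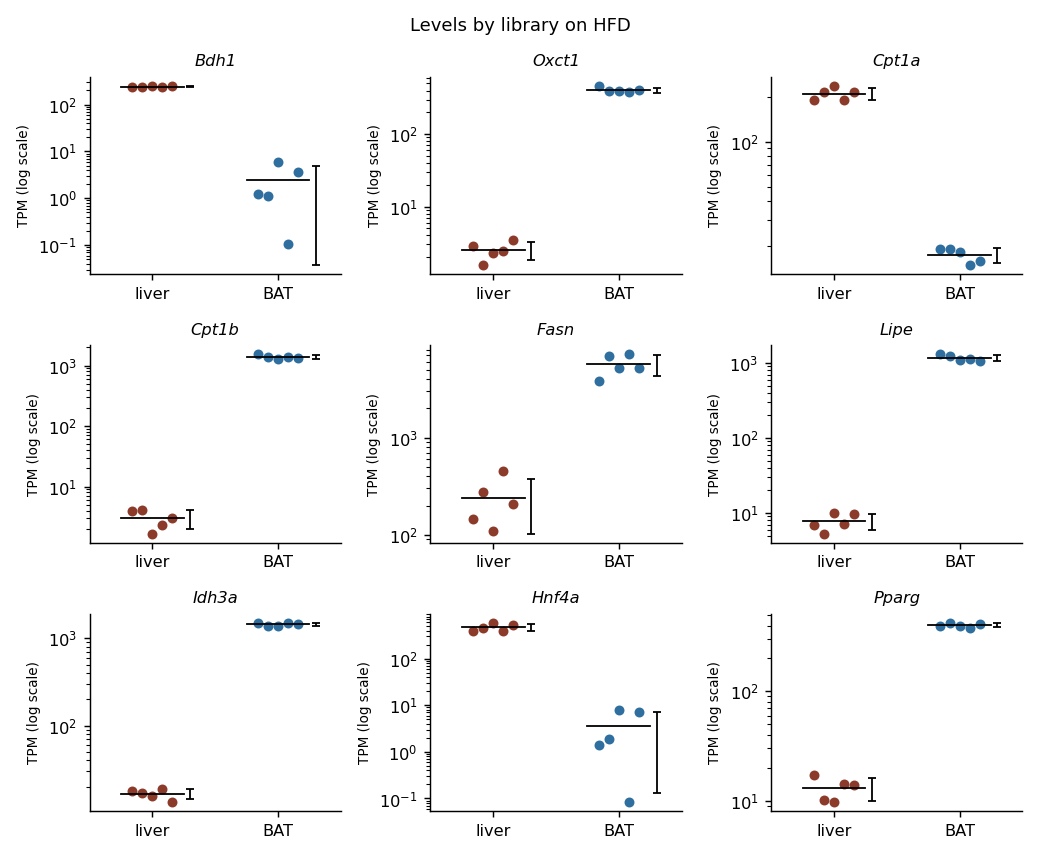
Rescaled TPM (log scales that differ between panels) of 9 genes in each of the 5 liver and 5 BAT libraries; points are libraries, horizontal lines means and error bars SD. No gene overlaps between tissues, and Hnf4a in BAT was lowest in library 80. Of all genes tested, 15.8% did not overlap and were higher in liver, and 64.4% likewise in BAT.

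Of 26 genes of the TCA cycle and pyruvate entry, 22 were higher in BAT (18 with median-ratio scaling) and 0 in liver. The differences were unequal along the cycle. Idh3a, the catalytic subunit of NAD-linked isocitrate dehydrogenase, was at 18.01, 17.2, 15.6, 18.8 and 13.4 TPM in liver and 1517, 1372, 1377, 1504 and 1459 TPM in BAT. It differed by -6.37, Ogdh, a subunit of the oxoglutarate dehydrogenase complex, by -4.68 and Cs, citrate synthase, by -4.53. The succinate-CoA ligase subunits separated: Sucla2, which forms ATP, differed by -4.21, whereas Suclg2, which forms GTP, was at 222 ± 12.3 and 195 ± 3.94 TPM and passed on neither scale. Pdk4, the kinase that closes pyruvate dehydrogenase, was at 8.97, 7.84, 2.47, 12.8 and 9.105 TPM in liver and 3500.2, 3167, 4724, 2284 and 3953 TPM in BAT (-8.67).

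The nuclear genes of the respiratory chain were higher in BAT almost without exception. All 36 complex I genes were called (median -2.54), 27 of them also with median-ratio scaling, from Ndufv1 at -3.47 to Ndufa6 at -1.61. All 14 genes of complexes II and III, with cytochrome c, were called (13 with median-ratio scaling), and all 16 of complex IV (14). Within complex IV the tissue-restricted isoforms led, Cox8b at -12.80 and Cox7a1 at -9.39, whereas the widespread Cox4i1 differed by -2.64. The ATP synthase list departed from this order. Of 21 genes, which include the adenine nucleotide and phosphate carriers, 1 was higher in liver and 15 in BAT, or 2 and 8 with median-ratio scaling. Atp5g1, a gene of the membrane c subunit, was higher in liver (2.74). It was at 56.7, 66.97, 61.8, 60.8 and 60.97 TPM in liver and 8.18, 6.73, 27.4, 5.06 and 4.801 TPM in BAT. The summed transcripts of that subunit were not compared. The catalytic beta subunit Atp5b was at 784 ± 39.8 and 7965 ± 268 TPM (-3.34).

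The thermogenic list had 26 of 31 genes higher in BAT (25 with median-ratio scaling) and a median of -5.52. Cidea, a droplet protein of brown adipocytes, was at 26.4 ± 13.5 TPM in liver and 5497 ± 472 TPM in BAT. Dio2, which activates thyroid hormone, was listed at 0 in all liver libraries and at 128, 34.7, 25.7, 80.1 and 57.9 TPM in BAT. Adrb3, the receptor through which noradrenaline starts thermogenesis, was at 10.4, 7.78, 9.26, 4.69 and 5.29 TPM in liver and 648, 577, 424, 506 and 597 TPM in BAT. Prdm16 and Ebf2, regulators of brown fat identity, differed by -3.60 and -5.52. Atp2a1, the calcium pump of fast muscle, was at 281, 277, 1983, 166 and 29.5 TPM in BAT and followed the muscle markers in being highest in library 79.

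Of 7 creatine genes, Gamt, the last enzyme of creatine synthesis, was higher in liver (259 ± 27.5 and 15.7 ± 5.83 TPM), and 4 were higher in BAT. The brain-type kinase Ckb, used by brown fat mitochondria in mice, was at 4.77, 4.97, 3.18, 3.696 and 4.47 TPM in liver and 87.3, 80.7, 51.4, 70.3 and 85.04 TPM in BAT. The muscle kinase Ckm was listed at 0 in the liver libraries and at 157, 156, 1167, 107 and 20.03 TPM in BAT, an order that followed the muscle markers, and their part in it was not tested.

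Cholesterol synthesis was higher in liver for most of its genes. Of 24 genes, 14 were higher in liver (19 with median-ratio scaling) and 0 in BAT. Sqle, squalene epoxidase, was at 49.4, 26.9, 34.2, 80.6 and 47.9 TPM in liver and 4.64, 5.09, 6.46, 8.66 and 5.74 TPM in BAT (2.71). Hmgcs1, which acts early in the route, was at 368 ± 131 and 341 ± 78.1 TPM and passed on neither scale.

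**Figure D4:**
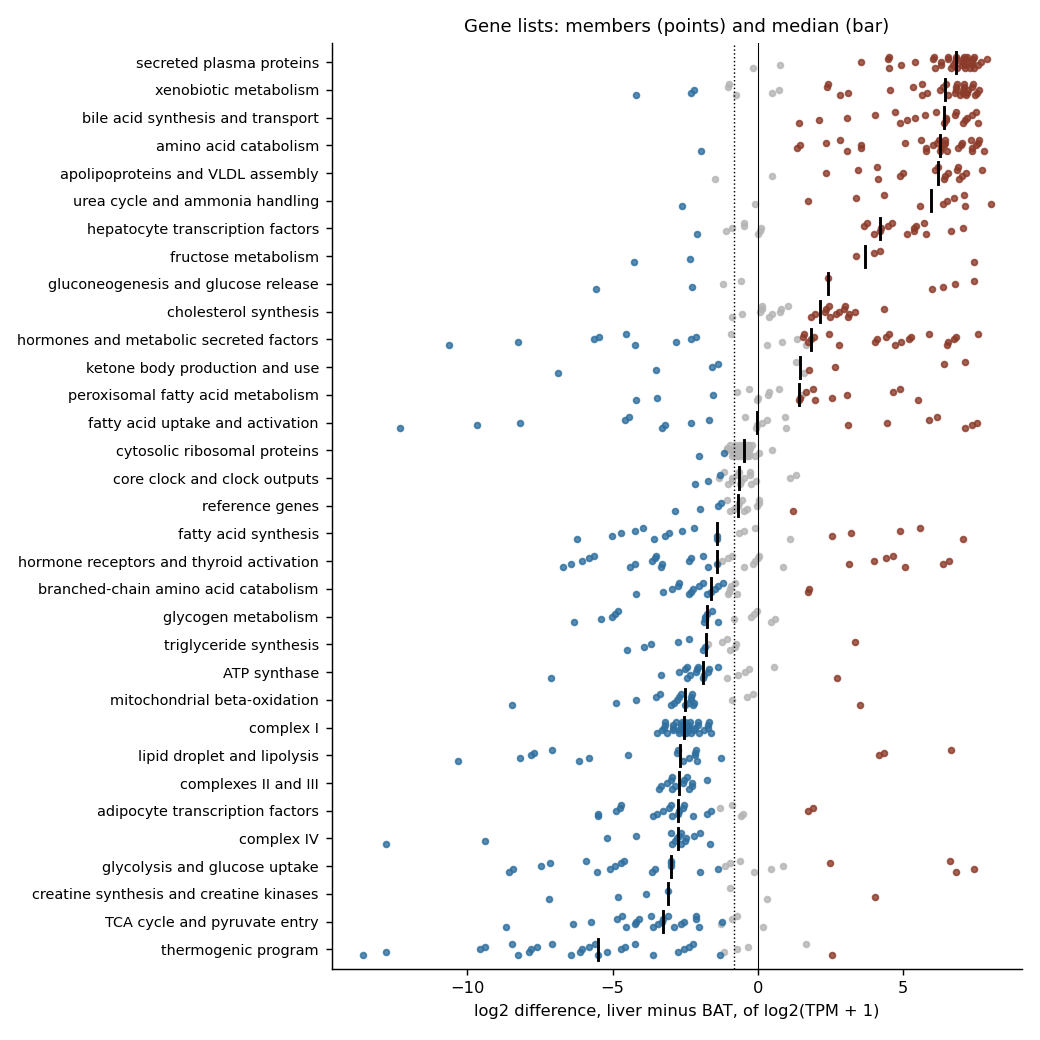
Log2 difference, liver minus BAT, of the members of each gene list (points) with the list median (bar); red points were called higher in liver, blue in BAT and grey in neither. The dotted line is the median of all genes, -0.83; of the lists plotted, which leave out cell markers, plasma proteins have the most positive median and the thermogenic list the most negative.

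Related genes often exchanged places. Of 33 pairs of one family, 14 had the first member called higher in liver and the other in BAT, 13 of them also with median-ratio scaling. The share of the first gene in the TPM of the pair was higher in every liver library than in any BAT library in 29 pairs and lower in 2, Pfkl with Pfkm and Alas1 with Alas2. Such shares do not change with scaling. Cpt1a held 98.6 ± 0.536% in liver and 1.25 ± 0.137% in BAT, Slc2a2 against Slc2a4 99.8 ± 0.0913% in liver and 0.297 ± 0.252% in BAT, and Pklr against Pkm 95.9 ± 1.01% in liver and 0.0923 ± 0.1001% in BAT. Between the thyroid hormone receptors, Thrb against Thra held 69.9 ± 4.77% in liver and 15.8 ± 2.01% in BAT. Cox8a held 99.99 ± 0.0335% in liver and 39.9 ± 0.944% in BAT against Cox8b, and Gys2 held 98.9 ± 0.315% in liver and 33.9 ± 4.10% in BAT against Gys1. Acaca held 44.3 ± 4.47% in liver and 48.9 ± 5.21% in BAT against Acacb, and there the libraries of the tissues overlapped. Pairs were chosen as known tissue isoforms, so their number says nothing of gene families at large.

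**Figure D5:**
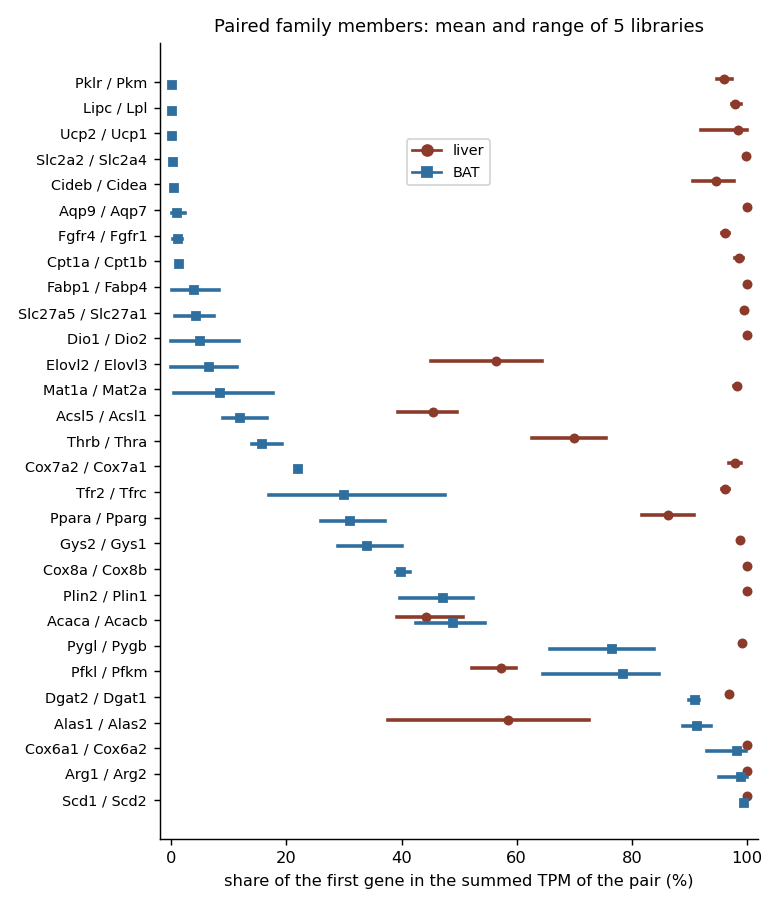
Share (%) of the first gene in the summed TPM of 29 of the 33 pairs, as mean and range of the 5 libraries in liver (circles) and BAT (squares). In 11 of the pairs plotted both members were called, in opposite directions; Acaca with Acacb and Arg1 with Arg2 overlap.

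Of 23 hepatocyte transcription factors, 15 were higher in liver and 1, Bcl6, in BAT, a call lost with median-ratio scaling. Hnf4a, the nuclear receptor that maintains hepatocyte identity, was at 400.5, 454, 595, 385 and 535 TPM in liver and 1.44, 1.92, 7.94, 0.0843 and 7.03 TPM in BAT (7.05). The bile acid receptor Nr1h4 differed by 5.77 and Creb3l3 by 6.63. Several regulators of liver metabolism were not restricted to liver: Cebpa was at 490.4, 469, 640.3, 461 and 511 TPM in liver and 1302, 1062, 799, 866 and 814 TPM in BAT, and Ppara at 76.9, 102, 89.7, 78.4 and 73.5 and 236, 204, 154, 132 and 191 TPM, neither passing on either scale.

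Among adipocyte regulators, 18 of 24 were higher in BAT (16 with median-ratio scaling). Pparg, the master regulator of fat cells, was at 17.1, 10.2, 9.73, 14.1 and 13.8 TPM in liver and 399, 426, 399.7, 376 and 416 TPM in BAT (-4.88). Esrra, a regulator of mitochondrial genes, differed by -3.26, and its coactivators Ppargc1a and Ppargc1b by -2.75 and -4.72. Klf15 (239 ± 58.2 and 68.4 ± 31.98 TPM) and Gata6 were higher in liver, and the call of Klf15 was lost when number 75, 76 or 80 was left out.

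The letters that such factors are known to bind were searched in promoter windows of 300 bases, from 250 before to 50 after the start of each gene. RefSeq gave windows on GRCm38.p6 for 10188 of 13503 tested genes of unique symbol. In all, 7 motifs were searched on both strands with earlier results known, and the shares are descriptions with no test. The HNF4 letters CAAAGTCCA were in 1.80% of the windows of genes higher in liver on both scales, in 0.424% of those higher in BAT, in 0.522% of those of all genes tested and in 0.475% of all windows in the table. The HNF4 counts were 25, 8, 68 and 156 windows, of 1392, 1886, 13017 and 32851. The C/EBP letters TTGCGCAA were in 0.144%, 0.106%, 0.292% and 0.183%, in the same order (2, 2, 38 and 60 windows). The letters TCAAGGTCA of the estrogen-related receptors, whose gene Esrra was higher in BAT, were in 0.144%, 0.371%, 0.269% and 0.423% (2, 7, 35 and 139 windows). The PPAR direct repeat of 13 letters, which shares AGGTCA with the former, was in only 1, 1, 5 and 13 windows (0.0718%, 0.0530%, 0.0384% and 0.0396%). The TATA letters TATAAA were in 14.9%, 8.85%, 7.92% and 13.6%. By list, the HNF4 letters were in 0 of 34 windows of secreted plasma proteins. The letters of the estrogen-related receptors were in 2 of 77 windows of oxidative phosphorylation. They were in 0 of 31 windows of the TCA cycle list and 0 of 18 of mitochondrial beta-oxidation. The HNF4 letters were in 0 windows of those lists as well.

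The windows below, of Cyp8b1 and of the cytochrome P450 gene Cyp2c70, were chosen because they hold the HNF4 letters, in capitals. A match is a description of the letters and not a binding site.
Cyp8b1: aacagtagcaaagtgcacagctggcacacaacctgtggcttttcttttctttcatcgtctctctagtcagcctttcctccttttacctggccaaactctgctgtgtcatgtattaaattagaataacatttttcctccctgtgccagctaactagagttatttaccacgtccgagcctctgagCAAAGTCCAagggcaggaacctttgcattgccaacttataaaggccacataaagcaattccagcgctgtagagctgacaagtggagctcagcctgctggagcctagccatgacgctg
Cyp2c70: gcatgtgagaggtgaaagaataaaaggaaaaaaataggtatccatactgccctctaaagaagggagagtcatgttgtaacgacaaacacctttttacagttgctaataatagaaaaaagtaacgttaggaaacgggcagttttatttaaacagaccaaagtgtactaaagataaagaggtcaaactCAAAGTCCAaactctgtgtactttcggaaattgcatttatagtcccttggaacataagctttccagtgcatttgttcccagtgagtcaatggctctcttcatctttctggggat
The Cyp8b1 window is chr9:121916256-121916555 on the minus strand (GRCm38.p6), with the match beginning 67 bases before the start. The Cyp2c70 window is chr19:40187237-40187536 on the minus strand (GRCm38.p6), with the match beginning 64 bases before the start.

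Hormone receptors went in both directions. Of 33, 7 were higher in liver and 17 in BAT, or 8 and 14 with median-ratio scaling. Gcgr, the glucagon receptor, was at 272, 284, 293, 299 and 279 TPM in liver and 1.99, 1.999, 5.47, 0 and 7.89 TPM in BAT. Npr3, the natriuretic peptide clearance receptor, was at 0.634 ± 0.169 and 170.1 ± 26.4 TPM, and Ffar4, a fatty acid receptor, at 0.0258 ± 0.0577 and 95.6 ± 36.9 TPM. Insr, the insulin receptor, was at 28.6, 33.4, 26.8, 29.8 and 33.1 TPM in the liver libraries and 33.6, 33.4, 32.2, 33.6 and 31.1 TPM in the BAT libraries and passed on neither scale, and the same held for Klb, the co-receptor of Fgf21.

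Of 35 hormones and secreted metabolic factors, 21 were higher in liver and 9 in BAT, or 24 and 8 with median-ratio scaling. The BAT side held the adipokines Adipoq (1826 ± 238 TPM) and Lep, leptin, at 305, 334, 323, 320.0 and 262 TPM in BAT. The liver side held Hamp, the iron hormone hepcidin, at 2471, 2177, 1774, 605 and 1469 TPM, Igf1 (4.02) and Igfbp1 (5.27). Fgf21, a hormone of both tissues, was at 11.7, 11.2, 12.9, 24.9 and 17.3 TPM in liver and 0.912, 6.36, 3.99, 4.28 and 7.396 TPM in BAT, and passed only with median-ratio scaling.

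Housekeeping groups lay near the median of all genes. Of 19 clock genes, 3 were called higher in BAT and 0 in liver, or 0 and 2 with median-ratio scaling. The 3 were 15.8% of the list, against 31.7% of all genes tested. Of 43 ribosomal protein genes, 2 were called, both toward BAT (median -0.49), and with median-ratio scaling 1, toward liver. Common reference genes differed unequally between the tissues. Sdha differed by -2.85 and Gapdh by -1.36, the latter call lost with median-ratio scaling (-0.42). B2m differed by 1.20, a call lost when number 75, 76, 80 or 83 was left out, whereas Hprt was at 114 ± 3.61 and 115 ± 9.09 TPM.

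Markers of some other cell types also differed. All 12 capillary endothelial markers were higher in BAT (11 with median-ratio scaling), summing to 2653 to 3322 TPM there and to 123 to 178 TPM in liver. Of 10 markers of Kupffer cells, the resident liver macrophages, 7 were higher in liver and 1, the endothelial cadherin Cdh5, in BAT, or 8 and 1 with median-ratio scaling. Of 9 sinusoidal endothelial markers, 5 were higher in liver (7 with median-ratio scaling). General macrophage markers gave 1 call toward liver and 3 toward BAT among 15, or 1 and 1 with median-ratio scaling. The first counts were 6.67% and 20% of the markers, against 10.6% and 31.7% of all genes tested. The 1 called toward BAT with median-ratio scaling was Lpl, the lipase described above. Of 15 muscle markers tested, 14 were called higher in BAT. Of 7 white adipocyte markers tested, 6 were higher in BAT and 1 in liver, on both scales. Lep and Npr3, given above, are among these 7 markers.

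Libraries of one tissue differed little for most genes. Among genes of at least 10 TPM, the median SD of log2(TPM + 1) was 0.127 in liver and 0.137 in BAT, and it exceeded 1 for 35 and 153 genes. In liver the largest SD was that of the metallothionein Mt2, followed by Zc3h11a (1 of 2 identifiers of that symbol, between which reads may be divided), the immediate early gene Egr1, the metallothionein Mt1 and the immediate early gene Fos. Mt2 was at 5.77, 31.6, 33.2, 17.5 and 767 TPM in libraries 75, 76, 79, 80 and 83, Mt1 at 9.72, 58.5, 47.9, 32.9 and 449.7 TPM and Egr1 at 7.13, 46.2, 5.198, 189.8 and 34.7 TPM. In BAT the most variable genes were the muscle troponins Tnnc1 and Tnnt1 and hepatocyte transcripts such as Fabp1, at 62.7, 146, 469, 2.94 and 588 TPM.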

How the data were processed

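Messenger RNA was measured in 10 libraries. Libraries were directional and poly(A)-selected, per the labels' protocols. The tools named in the submitters' processing notes are STAR and RSEM, on mouse build GRCm39, with no version or annotation release given in the sources used here. TPM, a share per gene corrected for length, were deposited by the authors for 55357 genes.

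The 37 mitochondrially encoded genes and 16 nuclear copies (BLAST+ 2.17.0 on GENCODE vM21 transcripts, at least 90% identity over at least 80% of length) were dropped and TPM rescaled. Genes reaching 1 TPM in 5 or more of the 10 libraries were fitted as log2(TPM + 1), which understates differences of low genes, with limma 3.58.1 in R 4.3.3, trended variance and the replicate number as a block, and adjusted by Benjamini-Hochberg over all genes at 0.05. Treat tested against 2-fold, two-sided. Other steps used Python 3.11.15, with SciPy 1.17.1 for permutation. The fit was tested on simulated data. Scaling, pseudocount, filters, the block and each number left out were varied.

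Members and lists were chosen with earlier results of these data known. Genes named are the 10 of largest difference in each direction, the most abundant, list members, the isoform pairs, the most variable and cell markers. Some list members, such as Mttp, Insr, Klb and Fgf21, lie outside that rule and were chosen after their values were seen. Where a symbol had several identifiers, the one holding at least 99% of its TPM was used, a rule added after values were seen. Some genes and 2 of the motifs searched are not reported here. The printed promoter windows were chosen after the 7 motif searches.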

Additional observations from a re-analysis of the deposited data

Results flagged for a closer look

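In 20 of 112 groups of 5 values checked, 1 library lay far from the other 4 of its tissue by Dixon's test at 95%, which chance gives in about 1 of 20 groups. The values are not independent, since many genes share a library. For the 4 liver genes listed at 0 in all libraries but 1, the outcome was fixed. Some genes checked, such as Mt2, Mt1 and Egr1, had been named for their large spread. The 20 groups are therefore not to be set against that rate.

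In BAT, muscle transcripts were high in 1 library. The summed muscle markers were 17940.0 TPM in library 79 against 412 to 2509.6 TPM, Acta1 was 4874 TPM in library 79 against 56.6 to 569.8 TPM, Atp2a1 was 1983 TPM in library 79 against 29.5 to 281 TPM, Ckm was 1167 TPM in library 79 against 20.03 to 157 TPM and Pgam2 was 337 TPM in library 79 against 7.39 to 48.9 TPM. Other BAT genes also had 1 distant library. Apoe was 1060.3 TPM in library 80 against 1930.4 to 2229 TPM, and Rbp4 was 388 TPM in library 83 against 211 to 254 TPM. Atp5g1 was 27.4 TPM in library 79 against 4.801 to 8.18 TPM, Oxct1 was 460.0 TPM in library 75 against 387 to 407 TPM and Mt2 was 1089.9 TPM in library 79 against 69.2 to 360.3 TPM.

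In liver, Mt2 was 767 TPM in library 83 against 5.77 to 33.2 TPM and Mt1 was 449.7 TPM in library 83 against 9.72 to 58.5 TPM. Egr1 was 189.8 TPM in library 80 against 5.198 to 46.2 TPM. Pck1 was 2592 TPM in library 76 against 1458 to 1747 TPM, Cebpa was 640.3 TPM in library 79 against 461 to 511 TPM and Gys2 was 198 TPM in library 79 against 124 to 142 TPM. For 4 genes all liver values but 1 were listed at 0: Ucp1 was 0.888 TPM in library 75 and 0 in the others, Acta1 was 0.134 TPM in library 80 and 0 in the others, Lep was 0.123 TPM in library 80 and 0 in the others and Atp2a1 was 0.0592 TPM in library 80 and 0 in the others.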

How the results depend on the processing

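The counts turned on the scaling. With only the mitochondrially encoded genes dropped, 1808 genes were more than 2-fold higher in liver and 2187 in BAT, and 3933 and 6046 differed at all. With nothing dropped the counts were 2248, 1395, 6017 and 3625, and with median-ratio scaling 2164, 1968, 5142 and 5058. Leaving out each number in turn gave 1390 to 1446, 4047 to 4208, 2304 to 2415 and 9320 to 9444, and a difference in mitochondrial share of -44.9 to -43.7 percentage points. A pseudocount of 0.1, no filter, or a filter of 5 TPM kept every count within 1.5 times. Genes near 0 changed sign. With nothing dropped, differences were 0.41 for Alas1, 0.30 for Cebpa, 0.55 for Egr1, 1.10 for Glul, 1.16 for Hprt, 1.01 for Insr, 1.02 for Kng2, 0.22 for Ldha, 0.69 for Mlxipl, 0.0863 for Ppara, 1.08 for Srebf1 and 0.93 for Thrb. With median-ratio scaling, differences were 0.16 for Alas1, 0.0444 for Cebpa, 0.31 for Egr1, 0.85 for Glul, 0.92 for Hprt, 0.80 for Insr, 0.77 for Kng2, 0.45 for Mlxipl, 0.83 for Srebf1 and 0.73 for Thrb. With the nuclear copies kept, differences were 0.0774 for Egr1, 0.59 for Glul, 0.67 for Hprt, 0.55 for Insr, 0.51 for Kng2, 0.19 for Mlxipl, 0.58 for Srebf1 and 0.48 for Thrb. Leaving out single numbers gave -0.10 to 0.13 for Hmgcs1, -0.0411 to 0.0319 for Hprt, -0.0875 to 0.19 for Klb. None of these passed the 2-fold test in the report. Of 176 genes named, median-ratio scaling lost the call of 7 and added 3.

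Whether a number marks the same mouse in both tissues is not stated, so the numbers may not pair the samples. Deviations from the tissue means correlated at 0.0297 to 0.117 between same-numbered libraries. Between libraries of different number they correlated at -0.133 to 0.106. These ranges overlapped, and pairing was not tested. Without the replicate block, 1438 and 4352 genes passed the 2-fold test and 2390 and 9565 differed at all, against 1435, 4286, 2390 and 9543 with it. Of the genes named, B2m and Mt1 lost their call. TPM give no depth, so the precision of low values is unknown.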
